A study of Arabidopsis thaliana with 6 samples.

Results

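The subject is a set of 10 Arabidopsis genes for proteins of the large (60S) subunit of the cytosolic ribosome, out of 3600 genes that the arrays measured under a name. They encode 7 proteins: L7 (AT2G01250 and AT2G44120), L15 (AT4G16720 and AT4G17390), L23 (AT1G04480 and AT2G33370), L7a (AT2G47610), L9 (AT4G10450), L14 (AT4G27090) and L10a (PGY1). The genes were named in advance by symbol or locus, with earlier results of these arrays known. Several of them had been selected on their fitted changes between CV and CL (AT4G17390, AT2G44120, AT2G47610) or between H and the other endings (AT4G10450, PGY1, AT2G44120, AT4G16720). Levels and changes in those comparisons are therefore descriptions of how these genes behaved, and no test of them is offered as evidence.

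The study concerns acclimation to light intensity in Arabidopsis thaliana accession Ws-2, with no genetic modification. Total RNA from unshaded rosette leaves at growth stage 3.90 was hybridised to 6 single-channel arrays. The groups are the codes CVL, CVM and CVH, with 1 array each, and CLL, CLM and CLH, with 1 array each; they cross 2 starts (CV and CL) with 3 endings (L, M and H). The labels do not say what the letters stand for, and only the growth records of the 2 L arrays mention a dark period. No code had a second array, the number of plants pooled is left blank, and separate growth of the plants is not recorded, so every spread given here lies between arrays of different codes and may be partly technical.

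The cytosolic ribosome translates nuclear messages, and most of its large subunit proteins are present once per ribosome. In Arabidopsis most of these proteins are encoded by small families of genes, the paralogues, whose products are close to identical, so that the demand for one protein can be met by more than one gene. Genes of ribosomal proteins are known to be expressed strongly in growing tissue and to be adjusted together. L7, L9, L10a and L23 belong to the proteins shared with bacteria, whereas L7a, L14 and L15 have no bacterial counterpart. Because bulk leaf tissue was used, fewer cells with a high level of a message and less of the message per cell cannot be told apart.

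The values are signal intensities on a linear scale as deposited, and changes are on the scale log2(signal + 3.9), with the offset set at percentile 20 of the values. The 10 genes lay far above it, and all 10 passed the filter that left out the dimmest 30% of probe sets. Median signals ran from 20 to 25 over the CV arrays and from 24 to 26.1 over the CL arrays. The leaf markers RCA, PRK and SBPASE, which encode enzymes or helpers of carbon fixation, were bright on all arrays, with summed signals of 12128 to 14330 in CV and 12561 to 14688 in CL (3 of 14 leaf markers listed were measured under a name). Of 9 markers of dividing cells 1 was measured (AT4G14330), with signals of 2.5 to 7.8 in CV and 3.4 to 12.7 in CL, too dim to be tested, and none of 3 root, 4 flower and 4 seed markers was measured.

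All 10 genes shared one outline. Their signal was highest on CVL and CVM, was lower on CVH, and differed by at most 1.60 times among the 3 CL arrays. Both CVL and CVM stood above the other 4 arrays for 10 of the 10 genes, as they did for 9.27% of the 5773 tested probe sets. CVM was the highest array for 9 of the 10 (12.3% of all tested probe sets); the exception was AT2G33370, highest on CVL and the only one in which CVM was not above CVL (9 of 10, against 45.2% of all tested probe sets). CVH was below both CVL and CVM for all 10 (28.8% of all tested probe sets), while CLH was below both CLL and CLM for 5 of 10 (41.2%). CVH was the lowest of the 6 arrays for 3 genes (13.6%) and lay within the range of the CL arrays for 1 (45%). The outline belongs to the values that guided the choice of the genes, so nothing is read from these shares.

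**Figure D1:**
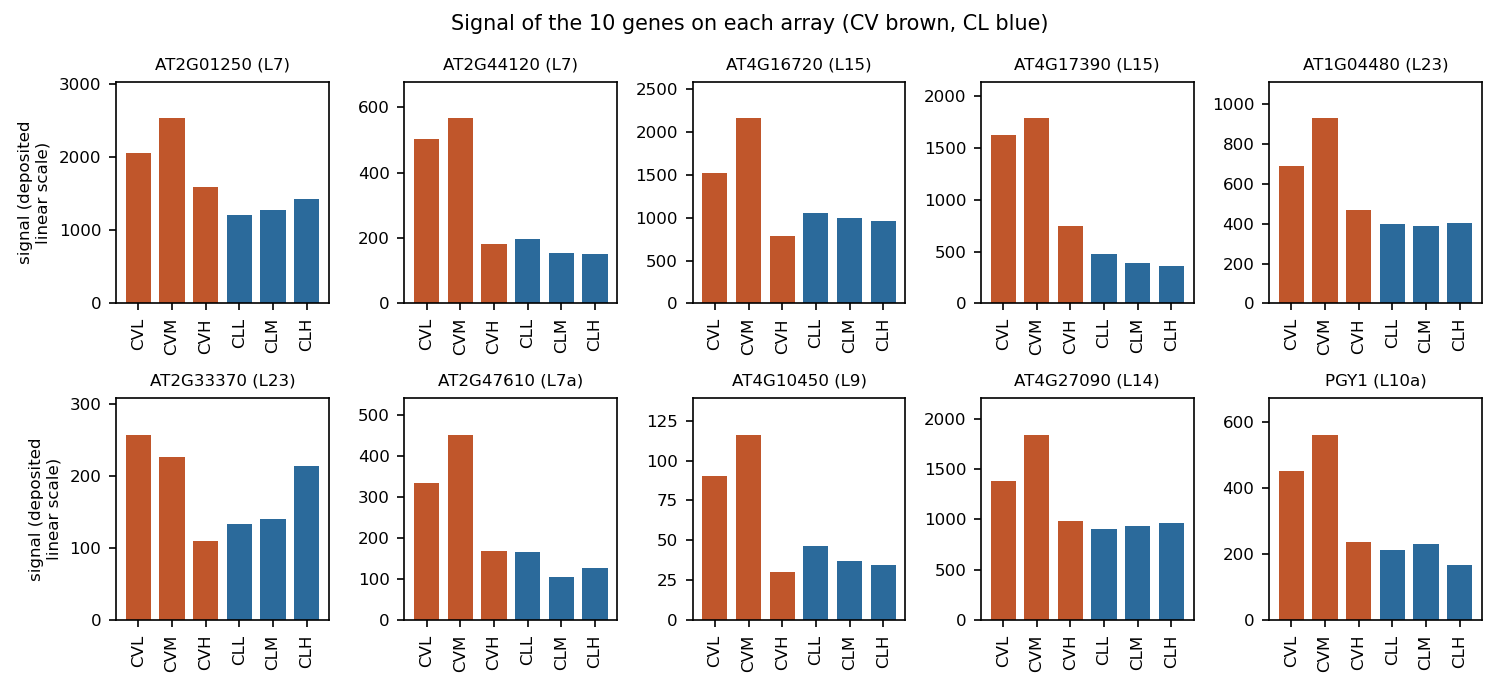
Signal of each of the 10 genes on the 6 arrays, on the deposited linear scale, with 1 bar per array, CV arrays brown and CL arrays blue; each panel has its own axis from 0. CVL and CVM carry the tallest bars in every panel, and CVH stands near the CL bars in most.

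For L7, AT2G01250 had signals of 2057.9 on CVL, 2527.8 on CVM and 1585.1 on CVH, against 1202.8 on CLL, 1275.4 on CLM and 1424.8 on CLH. Every CV array lay above every CL array, although CVH exceeded CLH by only 0.15 on the log2 scale. Its partner AT2G44120 had 504.5 on CVL, 566.0 on CVM and 182.6 on CVH, against 196.0 on CLL, 154.7 on CLM and 151.4 on CLH. Here the groups overlapped, since CVH lay within the range of the CL arrays, and CVM was 3.10 times as bright as CVH.

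For L15, AT4G17390 had signals of 1621.4 on CVL, 1782.7 on CVM and 748.7 on CVH, against 477.5 on CLL, 392.8 on CLM and 365.4 on CLH. Even CVH, the lowest CV array, was above all CL arrays, and at 2.05 times CLH it was the highest such ratio of the 10 genes. The other L15 gene, AT4G16720, had 1513.8 on CVL, 2154.7 on CVM and 784.3 on CVH, against 1059.1 on CLL, 995.0 on CLM and 963.5 on CLH. Its groups overlapped, with CVH the lowest of all 6 arrays.

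L23 lies on the face of the large subunit that meets the small subunit. AT1G04480 had signals of 692.8 on CVL, 929.4 on CVM and 469.5 on CVH, against 400.0 on CLL, 390.6 on CLM and 404.4 on CLH. On this probe set the CL arrays differed by at most 1.04 times and all CV arrays lay above them. The gene's other 2 probe sets differed more among the CL arrays, by at most 1.56 and 1.45 times, and on the dimmest CVH (165.5) lay below CLL (180.9). AT2G33370 had 256.7 on CVL, 226.4 on CVM and 109.8 on CVH, against 133.3 on CLL, 140.2 on CLM and 213.6 on CLH. This gene alone among the 10 had its highest CL level on CLH by a wide margin, so that CVH stood at 0.514 times CLH and was the lowest of the 6 arrays.

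The remaining 4 proteins had 1 member each. L7a was represented by AT2G47610, with signals of 335.5 on CVL, 452.1 on CVM and 167.5 on CVH, against 166.9 on CLL, 104.9 on CLM and 127.2 on CLH; CVH was barely above CLL. L9, near the site where translation factors bind, was represented by AT4G10450, with 90.3 on CVL, 116.1 on CVM and 30.0 on CVH, against 46.2 on CLL, 37.2 on CLM and 34.2 on CLH. It was the dimmest of the 10 and had the largest contrast within CV, CVM being 3.87 times as bright as CVH, which was the lowest array. L14 was represented by AT4G27090, with 1384.1 on CVL, 1841.2 on CVM and 989.3 on CVH, against 900.8 on CLL, 936.1 on CLM and 963.9 on CLH; CVH was only just above CLH. PGY1 encodes L10a, the protein of a mobile stalk beside the exit site for spent transfer RNA, and its loss is known to alter leaf shape in Arabidopsis. It had 450.6 on CVL, 560.7 on CVM and 236.6 on CVH, against 211.5 on CLL, 229.0 on CLM and 167.3 on CLH, so CVH was narrowly above CLM.

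The comparison of CV with CL asks how the genes differed between the starts on average over the endings. All 10 had a higher fitted level in CV, where 40.5% of all tested probe sets did, with a median log2 change of 0.76 against -0.10 over all tested probe sets. The changes ran from 0.22 (SE 0.37) for AT2G33370 to 1.65 (SE 0.27) for AT4G17390, which was the tenth highest of the 5773. In mean signal, AT4G17390 averaged 1384 ± 556 in CV and 412 ± 58.4 in CL (SD, n = 3 arrays of different endings each), a ratio of 3.36. Next came AT2G44120 with 1.15 (SE 0.32), AT2G47610 with 1.15 (SE 0.34) and PGY1 with 0.95 (SE 0.26). AT4G10450 had 0.76 (SE 0.34), AT1G04480 0.75 (SE 0.26), AT2G01250 0.64 (SE 0.23), AT4G27090 0.54 (SE 0.24) and AT4G16720 0.44 (SE 0.28). For 6 of the 10 genes the 3 CV arrays all lay above the 3 CL arrays, as did 7.36% of all tested probe sets; the 4 with overlap were AT2G44120, AT4G16720, AT2G33370 and AT4G10450.

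The fit was limma's, with the start and the ending as additive terms and 2 residual degrees of freedom, adjusted over all tested probe sets. With 1 array per code, a difference between the starts that depends on the ending counts as error in this fit. Its SEs and p therefore do not measure spread between replicates. None of the 10 genes passed an adjusted p of 0.05, with values from 0.0959 for AT4G17390 to 0.837 for AT2G33370 and 6 of 10 under 0.05 before adjustment; over all probe sets 2 were called (0.0346%), and 748 had an unadjusted p under 0.05. Leaving out CVL or CLL gave AT4G17390 a change of 1.60, CVM or CLM 1.39, and CVH or CLH 1.96. For AT2G44120 these changes were 1.05, 0.81 and 1.60. For AT2G47610 they were 1.23 without CVL or CLL, 0.69 without CVM or CLM and 1.53 without CVH. With the ending as a block, leaving out either array of an ending gives the same change, so such fits are not separate checks. Each had 1 residual degree of freedom. No call of these genes is read from them, because the genes had been selected on this comparison. Over all probe sets the same fits called 257 without CVL, 251 without CLL, 57 without CVH and 55 without CLH. The change of AT2G33370 turned to -0.13 without CVL or CLL and to -0.01 without CVM or CLM. Array background, a scanner reading in the labels, was 73.52, 56.56 and 68.77 on CVL, CVM and CVH and 56.06, 64.02 and 64.52 on CLL, CLM and CLH; its part in the levels was not tested. The labels give no batch, so the start and the handling of single arrays cannot be told apart.

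**Figure D2:**
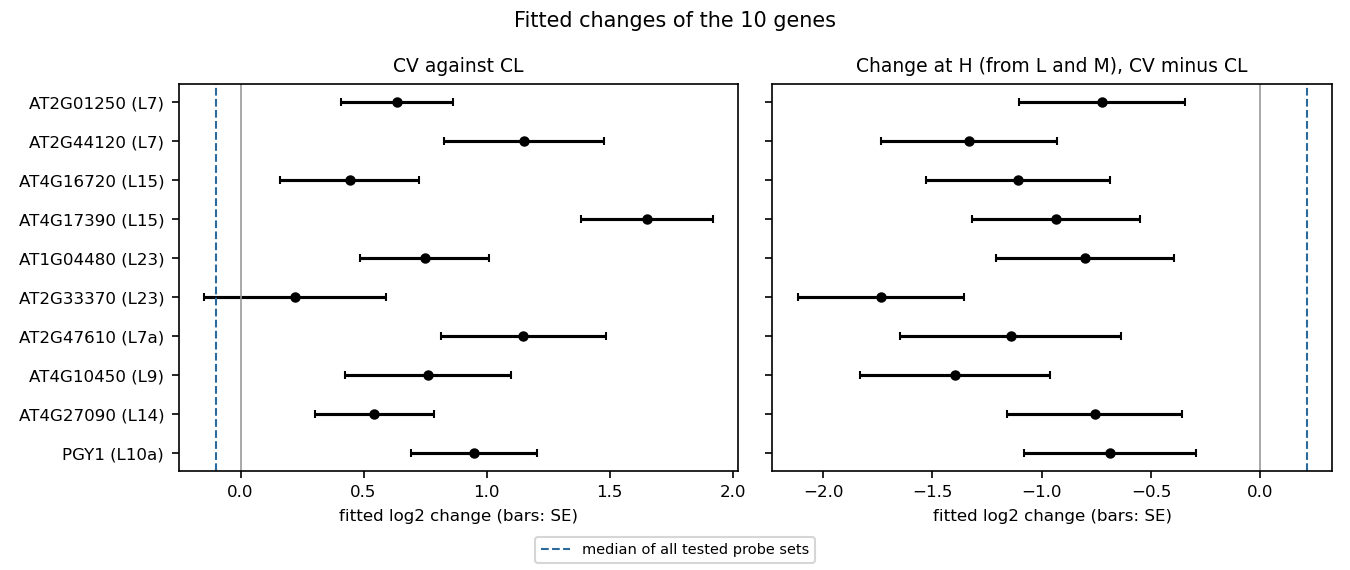
Fitted log2 changes of the 10 genes with their standard errors: left, CV against CL; right, the change at H (from the mean of L and M) in CV minus that in CL. Dashed lines are the medians of all 5773 tested probe sets, -0.10 and 0.21; all 10 genes lie right of it on the left and left of it on the right.

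The difference between the starts was smaller at H than at L or M. Between the single arrays CV was above CL by a median of 0.92 at L and 1.26 at M, with all 10 genes higher in CV at both, and by 0.18 at H, with 7 of the 10 higher. Over all tested probe sets these medians were -0.15, -0.18 and 0.05, and 2239, 2197 and 3118 of 5773 were higher in CV. At H the 3 genes lower in CV were AT2G33370 (-0.94), AT4G16720 (-0.30) and AT4G10450 (-0.17). AT4G17390 was the gene with the highest difference at L (1.76), M (2.17) and H (1.03).

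**Figure D3:**
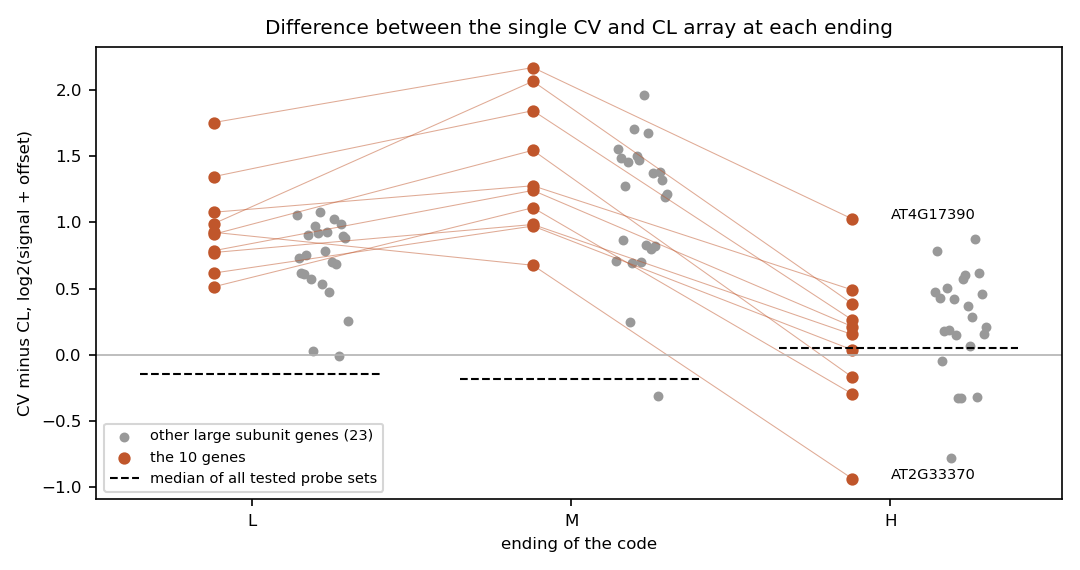
Difference between the single CV array and the single CL array at each ending, on the log2(signal + 3.9) scale; brown points joined by lines are the 10 genes, grey points the 23 other tested large subunit genes, dashed lines the median of all tested probe sets. The brown points lie nearer 0 at H (median 0.18, against 0.92 at L and 1.26 at M), with AT4G17390 highest and AT2G33370 lowest.

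Seen within each start, the genes varied more over the CV arrays than over the CL arrays. The log2 range over the CV arrays had a median of 1.24 for the 10 genes (0.67 to 1.82), and that over the CL arrays a median of 0.37 (0.05 to 0.66). The range was larger in CV for all 10 genes, as for 52.9% of all tested probe sets, whose median ranges were 0.60 in CV and 0.55 in CL. From L to M in CV, 9 of 10 genes were higher at M (median 0.33), while in CL 4 of 10 were (median -0.06). Of all 5773 tested probe sets, 2609 were higher at M in CV and 2664 in CL. The ratio of CVM to CVH ran from 1.59 for AT2G01250 to 3.87 for AT4G10450.

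In the additive fit over both starts, H was below M for all 10 genes (45.8% of all tested probe sets), with a median of -0.62 against 0.04 over all tested probe sets, and below L for all 10 (50.8% of all tested probe sets), with a median of -0.58 against -0.01. The lowest values of H against M were those of AT4G10450 (-0.97, SE 0.41), PGY1 (-0.84, SE 0.31) and AT2G44120 (-0.82, SE 0.40), and the nearest to 0 was AT2G33370 (-0.21, SE 0.45). M against L gave a median of 0.11, with 6 of 10 genes higher at M (42.8% of all tested probe sets). Limma called 0 probe sets (0%) in each of these 3 comparisons, with unadjusted p under 0.05 for 256 in H against M, 349 in H against L and 74 in M against L.

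The starts contributed unequally to these averages. Within CV, CVH against CVM had a median of -1.24 and CVH against CVL one of -0.97, with all 10 genes lower on CVH. Of all 5773 tested probe sets, 2201 were lower on CVH than on CVM and 2462 than on CVL. Within CL, CLH against CLM had a median of 0.0059 with 5 of 10 genes lower, and CLH against CLL one of -0.23 with 6 of 10 lower. Here 3151 and 3294 of the 5773 were lower on CLH, so the counts in CL were near the share over all probe sets. The medians of H against M and of H against L accordingly became -0.11 and -0.049 without CVH, and -1.14 and -1.11 without CLH. Without CVM the H against M median was -0.18 and the M against L median -0.34, and without CLM they were -1.07 and 0.51. The 3-prime to 5-prime ratio of the GAPDH control, a measure of RNA quality, was 5.50 on CVH and 6.22 on CLH, against 2.81 to 3.76 on the 4 L and M arrays. The same ratio of the UBQ control was 2.31 on CVH, the lowest of the 6 arrays, and 3.18 on CLH, the highest, against 2.43 to 3.12 on the L and M arrays. The 2 controls thus differed on CVH, and their part in the levels was not tested.

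Whether the change at H differed between the starts was fitted as an interaction, with L and M of one start taken as the spread. The change at H was lower in CV than in CL for all 10 genes (38% of all tested probe sets), with a median of -1.02 against 0.21 over all tested probe sets. AT2G33370 had the largest difference (-1.74, SE 0.38), made of a low level on CVH and a high level on CLH, followed by AT4G10450 (-1.40, SE 0.44) and AT2G44120 (-1.33, SE 0.40). The smallest were those of PGY1 (-0.69, SE 0.39) and AT2G01250 (-0.73, SE 0.38). Limma called 0 of 5773 probe sets (0%; 571 at an unadjusted p under 0.05), and adjusted p for the 10 genes lay between 0.404 and 0.571. After quantile normalization the median of all tested probe sets shifted to 0.03, and that of the 10 genes was -0.98.

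Paralogues of one protein were compared by their changes over the same arrays, since the signals of different probe sets have no common scale. No probe sequences were at hand, so binding of a probe set to messages of related genes was not tested. That holds for every pair and for genes without a measured partner, such as PGY1. For each array the log2 level of one gene relative to its own mean was set against that of its partner. In every pair the gene with the higher fitted change between CV and CL was put first, so the sign of that difference follows from the order. Differences between partners are given with an SE from the same additive terms fitted to that pair alone, on 2 residual degrees of freedom. Unlike limma's SEs of single genes, it borrows no spread from other probe sets, so the pair SEs and gene SEs are not comparable. No p is given, because the pairs were chosen with results known. An exact permutation test of 3 against 3 arrays also cannot go below 0.10.

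The 2 genes of L15 were the furthest apart. Between CV and CL the fitted change was 1.65 for AT4G17390 and 0.44 for AT4G16720, a difference of 1.21 (SE 0.08). The level of AT4G17390 relative to AT4G16720 was 0.78, 0.41 and 0.62 on CVL, CVM and CVH, against -0.46, -0.65 and -0.71 on CLL, CLM and CLH, without overlap. Lack of overlap was not particular to L15. It also held for the pairs of L17, L27, L31 and the stalk protein P2, the last with a difference of only 0.15. The L15 difference lay between 1.15 and 1.28 with any 1 array left out. At the endings the pair kept closer together. Changes of H against M were -0.68 and -0.75, a difference of 0.07 (SE 0.10). The difference was -0.21 (SE 0.10) for H against L. For M against L it was -0.28 (SE 0.10), with changes of opposite sign. The partners thus differed most in their contrast between the starts and were both low on CVH relative to CVM.

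For L7, AT2G44120 relative to AT2G01250 stood at 0.66, 0.53 and -0.41 on CVL, CVM and CVH, against 0.08, -0.33 and -0.52 on CLL, CLM and CLH. The groups overlapped, and the difference between CV and CL was 0.52 (SE 0.22). Against L, the change at H was -0.91 for AT2G44120 and -0.07 for AT2G01250, a difference of -0.84 (SE 0.27). Against M the difference was -0.56 (SE 0.27), about the size of that between CV and CL.

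In the L23 pair, AT1G04480 relative to AT2G33370 stood at -0.15, 0.45 and 0.49 on CVL, CVM and CVH, against -0.01, -0.12 and -0.66 on CLL, CLM and CLH. The difference between CV and CL was 0.53 (SE 0.37), with overlapping groups, and ran from 0.21 without CVH or CLH to 0.86 without CVL or CLL. AT1G04480 had 3 probe sets, of which the brightest, a family-type set that can bind related messages, was used. Their changes between CV and CL were 0.75, 0.79 and 0.71, but they differed on CLH against CLM, where the set used was 0.05 higher and the other 2 were 0.35 and 0.32 lower. The interaction at H for AT1G04480 was -0.80 with the set used and -0.22 and -0.47 with the others. None of the 3 showed the higher CLH level of AT2G33370.

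**Figure D4:**
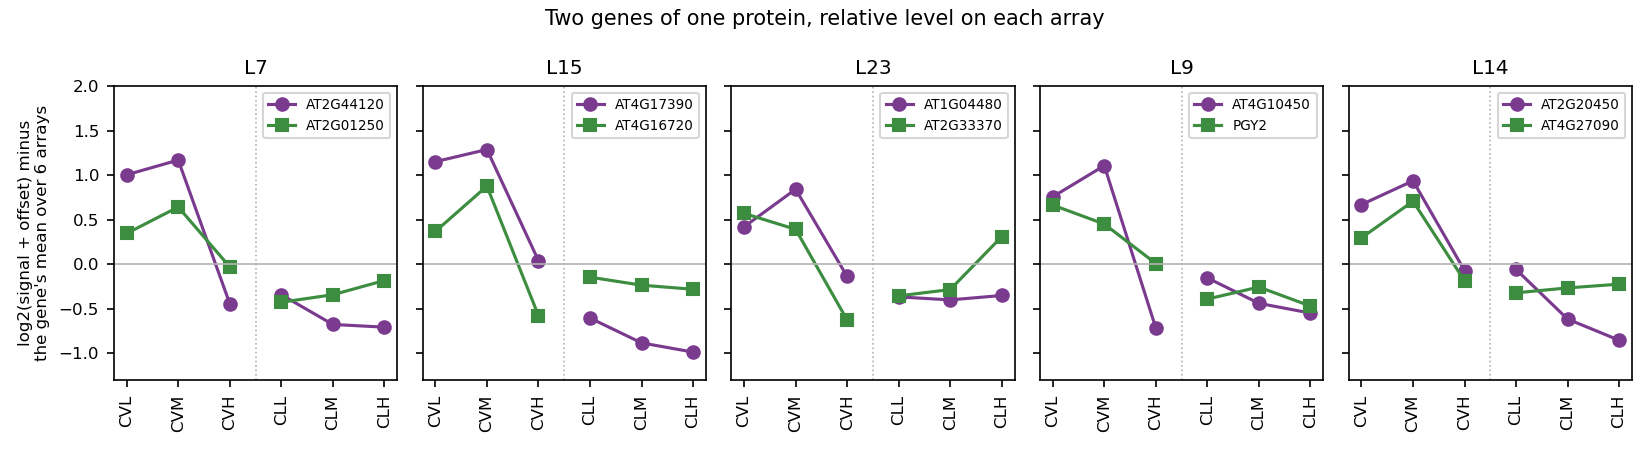
Level of 2 genes of one protein on each array, as log2(signal + 3.9) minus the gene's mean over the 6 arrays, CV arrays on the left of each panel and CL arrays on the right. The L15 genes run apart between the starts (1.65 and 0.44 for CV against CL), AT2G44120 of L7 is the higher of its pair on CVL and CVM and the lower on CVH, AT4G10450 of L9 is the higher on CVM and the lower on CVH, and AT2G33370 of L23 is high on CLH.

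For L9 and L14 a second gene outside the 10 was measured. PGY2, which like PGY1 was found through its effect on leaf shape, encodes L9 and had signals of 1712.3 on CVL, 1476.8 on CVM and 1085.3 on CVH, against 822.1 on CLL, 903.0 on CLM and 778.3 on CLH. All CV arrays were above all CL arrays. Its change between CV and CL, 0.75, was close to the 0.76 of AT4G10450 (difference 0.02, SE 0.44), but on CVH AT4G10450 relative to PGY2 stood at -0.73, against 0.66 on CVM. The second L14 gene, AT2G20450, had 148.7 on CVL, 179.7 on CVM and 87.4 on CVH, against 88.2 on CLL, 58.7 on CLM and 49.2 on CLH. Between CV and CL its fitted change was 1.02 and that of AT4G27090 was 0.54, a difference of 0.48 (SE 0.19); AT2G20450 relative to AT4G27090 was 0.37, 0.23 and 0.11 on CVL, CVM and CVH, against 0.26, -0.35 and -0.63 on CLL, CLM and CLH, with overlap through CLL.

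A list of 132 large subunit loci held 35 genes measured under a name, 33 of which were tested. Of the 23 tested genes outside the 10, 21 had a higher fitted level in CV (40.5% of all tested probe sets), with a median of 0.79 against 0.76 for the 10; 0 were called by limma and 15 had an unadjusted p under 0.05, all 15 higher in CV, where 748 of all 5773 probe sets had such a p and 321 of these were higher in CV. For 14 of the 23 the 3 CV arrays all lay above the 3 CL arrays, as for 7.36% of all tested probe sets. The highest changes of the list belonged to AT4G17390, AT2G44120 and AT2G47610 of the 10 genes. The lowest were those of AT2G40010, a gene of the stalk protein P0 (-0.21, SE 0.34), AT2G32220 of L27 (-0.02, SE 0.32) and AT2G33370. AT2G40010 was dim, with 13.7, 12.0 and 16.1 on CVL, CVM and CVH, against 13.8, 15.8 and 21 on CLL, CLM and CLH. At H against M, 22 of the 23 were lower (45.8% of all tested probe sets), with a median of -0.42 against -0.62 for the 10, and in the interaction at H 22 of the 23 were lower in CV (38% of all tested probe sets), with a median of -0.68 against -1.02. Since the 10 were picked with their changes known, these medians are set side by side only.

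Over the 6 arrays the profiles of the 10 genes correlated with each other at a median Pearson r of 0.92 over 45 pairs of genes. The lowest value was 0.53 and the highest 0.99. Each gene correlated with the mean of the other 9 at 0.92 or more except AT2G33370 (0.66). These values rest on 6 points that share the same arrays and scaling. Among 2410 other tested genes, the 8 whose profile was most like the mean of the 10 were UBA1A (r = 0.995), AT2G36160 (0.992), AT2G09990 (0.991), AT1G67430 (0.987), AT2G16810 (0.986), AT2G31610 (0.985), AT4G15000 (0.982) and AT2G30320 (0.979). AT1G67430 (L17) and AT4G15000 (L27) are on the large subunit list. That list holds no small subunit genes. Genes off it, such as AT2G36160, AT2G09990 and AT2G31610, are therefore not shown to be non-ribosomal. Whether the outline was shared with genes of the small subunit was not tested. Of the 23 other large subunit genes 16 had r over 0.9, as did 2.7% of the 2410. UBA1A and AT2G16810 were dim, with at most 24.4 and 21.6 on CVM and 2.9 to 6.5 on the CL arrays, so their likeness is less certain than that of AT2G36160, which had 1525.6, 1789.7 and 913.7 on CVL, CVM and CVH, against 830.9, 711.7 and 791.8 on CLL, CLM and CLH.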

How the data were processed

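The deposited table holds 1 column of signal intensity per array for 8297 probe sets. Per the labels, biotin-labelled RNA was hybridised to single-channel arrays; the sources used here do not name the software behind the deposited intensity values. From the values, every array had been scaled by the authors to a mean of 100.2 after trimming 2% at each end.

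The 50 control probe sets were set aside, 2474 probe sets with a mean at or below 8.86 were left out, and 5773 were analysed as log2(intensity + 3.9), where log2 was taken here from the deposited linear values. limma 3.58.1 in R 4.3.3 (lmFit, eBayes with an intensity trend, Benjamini-Hochberg adjustment) fitted start and ending additively, and start, H and their interaction in a second fit. Alternatives were other offsets, filters, normalization, models and leaving out each array. Both fits were run on simulated data with independent noise. The check was that they returned known changes on average, and no condition was set on the calls. One gene was paired with 3794 probe sets (3792 matched to a locus of the TAIR10.1 table), several with 70 and none with 4383; where several probe sets were paired with a gene, the brightest was used. The members and lists were chosen with earlier results of these data known, and the large subunit list assigns loci to proteins by hand. Named are all members, other measured genes of the same proteins, the 3 highest and 3 lowest of the list for CV against CL, and the 8 genes most alike. Precision is limited by 1 array per code.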

Additional observations from a re-analysis of the deposited data

Results flagged for a closer look

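For 7 of the 10 genes the single-array change from L to M had opposite signs in CV and CL. This contrast of the starts was not tested, and no share over all tested probe sets was taken for it. Some of the changes were small, such as -0.03 for AT1G04480 within CL. The change in CV minus that in CL was 1.08 for AT2G47610, 0.63 for AT4G10450, 0.60 for AT4G16720, 0.50 for AT2G44120, 0.46 for AT1G04480 and 0.42 for AT4G17390, each higher at M in CV and lower at M in CL. For AT2G33370 it was -0.25, with M lower than L in CV and higher in CL. The change within CV was 0.43 for AT2G47610 and 0.51 for AT4G16720, and within CL -0.65 and -0.09.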

How the results depend on the processing

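With another offset (16 or 1), no filter, quantile normalization, no intensity trend, or the mean over all probe sets of a gene, every member kept the sign of its change in all 5 comparisons, and for CV against CL also with no block for the ending, which was run for that comparison alone. The median change then ran from 0.69 to 0.78 for CV against CL, 0.09 to 0.12 for M against L, -0.59 to -0.57 for H against L, -0.64 to -0.56 for H against M and -1.02 to -0.98 for the interaction at H. The 2 calls for CV against CL became 0 when the trend was dropped and 0 when the block was dropped. Leaving out 1 array in turn gave 1 (without CVM or CLM) to 257 (without CVL) calls for CV against CL, 0 to 38 for M against L, 0 to 64 for H against L and 0 to 10 for H against M, with 1 residual degree of freedom. The member medians then ran from 0.48 to 1.10, from -0.34 to 0.51, from -1.11 to -0.049 and from -1.14 to -0.11, and from -1.18 to -0.81 for the interaction, which has no value without CVH or CLH. In these fits the sign turned in 4 of 60 member changes for CV against CL and 15 of 60 for M against L. It turned in 7 of 60 for H against L, 5 of 60 for H against M and 0 of 40 for the interaction. The paralogue differences for CV against CL ran from 0.34 to 0.72 for L7, 1.15 to 1.28 for L15, 0.21 to 0.86 for L23, -0.40 to 0.35 for L9 and 0.35 to 0.66 for L14. For L9 the difference was -0.09 with an offset of 16. The fit of CV against CL already sets the arrays of one ending against each other, through the block for the ending. By replicate number, no paired analysis was possible because each code has 1 array and the labels give no shared replicate numbers. The labels give neither batch nor detection calls, and a change of 1 array per code has no replicate check.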

Other observations

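Of the large subunit list, 4 further proteins had 2 tested genes each. For L27, the fitted change between CV and CL was 1.04 for AT4G15000 and -0.02 for AT2G32220, a difference of 1.06 (SE 0.08). The level of AT4G15000 relative to AT2G32220 was 0.34, 0.72 and 0.52 on CVL, CVM and CVH, against -0.61, -0.29 and -0.69 on CLL, CLM and CLH. For L31 it was 1.11 for AT4G26230 and 0.30 for AT2G19740, a difference of 0.80 (SE 0.30). The genes of L17 were closer, with 0.74 for AT1G67430 and 0.48 for AT1G27400 (difference 0.26, SE 0.08). Those of the stalk protein P2 were 0.89 for AT2G27710 and 0.74 for AT2G27720 (difference 0.15, SE 0.09), and these genes have adjacent locus numbers. AT2G32220 was dim, with 38.7, 42.8 and 19.2 on CVL, CVM and CVH, against 37.8, 25.0 and 35.8 on CLL, CLM and CLH, so its change is the less certain of the pair.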
